A study of Pyrus ussuriensis with 15 samples.

Results

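The genes described here climbed stepwise to day 12 while adventitious roots formed in *Pyrus ussuriensis* Maxim, an Asian pear. They are 66 of the 42812 gene models whose IDs start with Pbr, in a table of 44681 models. The members were chosen by their measured levels, in CPM (the reads counted for a model, divided by all reads counted in its library and scaled to one total for every library). A member had a day 3 mean under 2 times the day 0 mean, a day 9 mean at least 2 times that of day 0, and a day 12 mean at least 2 times that of day 9 and at least 2 CPM. All of its day 12 libraries lay above all of its day 9 libraries, and these above all of its day 0 libraries. Day 6 was not used in the choice, so the day 6 libraries hold the measurement that bears on these genes without having selected them.

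Adventitious roots are roots that a plant forms on stems, shoots or leaves, outside its seedling root system. In woody cuttings and cultured shoots their formation is usually divided into induction, in which auxin makes competent cells near the vascular tissue change fate, initiation, in which those cells divide into a root primordium, and emergence, in which the primordium grows out and joins the vascular system. Late phases need cells that divide, expand and differentiate into root tissues. The files give IDs without gene names or descriptions, so no function is attached to any model here.

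The samples were taken on day 0, 3, 6, 9 and 12, with 3 libraries on each day and 15 in all. The genotype and the treatment were shared by all days: per the labels, cultured adventitious buds 25 days after subculture were set to root on 1/2 MS, a plant tissue culture medium, at pH 6.0. It was set with 7.5 g agar and held sucrose at 30.0 g/L and the auxin IBA, indole-3-butyric acid, at 0.5 mg/L. No day had a parallel culture without IBA, so the passage of time and the auxin treatment cannot be told apart. The tissue label reads adventitious roots on every day, day 0 included, and it could not be checked against marker genes because the IDs carry no names. The replicate numbers are not said to mark separate cultures, so the spread behind each p-value is that between libraries and may be technical. Total counts ran from 11953240 to 17878524 per library. In bulk tissue, more cells of a type and more RNA of a gene per cell cannot be told apart.

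The conditions of the choice narrowed quickly. Of the 42812 models, 22033 had a day 12 mean of at least 2 CPM and 21392 of these also stayed under 2 times the day 0 mean at day 3. Of those, 1295 were at least 2 times the day 0 mean at day 9, and 84 then at least doubled again at day 12. The condition that no library overlap removed 18 more. A pair of models without the Pbr prefix met all the other conditions and was not included. Several thresholds had models close by on both sides. The member nearest the limit of the second step had a day 12 mean 2.00 times its day 9 mean, and the closest model outside, which failed that condition alone, had 1.97 times. For the first step these values were 2.01 times day 0 inside and 2.00 times, just under the limit, outside. The member highest at day 3 had 1.94 times its day 0 mean, against 2.03 for the nearest model outside. The lowest day 12 mean was 2.23 CPM among members and 1.92 CPM in the nearest model outside.

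These selecting values are given as a description. The median member had a day 9 mean 2.89 times its day 0 mean, with a highest value of 18.8 times. Its day 12 mean was 3.12 times its day 9 mean, with a highest value of 40.2 times. The second step was the larger fold in 35 members and the first in 31, so neither step carried most of the climb throughout. Day 12 was at least 4 times day 9 in 25 members and at least 8 times in 9. The member with the 40.2-fold second step, 1596 coding bases on the plus strand of scaffold97.0 (374570 to 376165), had levels of 3.84, 3.91 and 3.52 CPM at day 12, against 4 counts in all over its 3 day 9 libraries. Its fold therefore rests on few day 9 counts. Among the 60 members with more than 3 counts over the day 0 libraries, the largest fold between day 12 and day 0 was 129, for a model of 1047 bases on the minus strand of scaffold85.0 (47335 to 49260). It had 24.0, 20.9 and 23.0 CPM at day 12 and 0.456, 0.0696 and 0 CPM at day 0. These day 0 levels came from 8 counts in all, so this fold too rests on few counts.

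**Figure D1:**
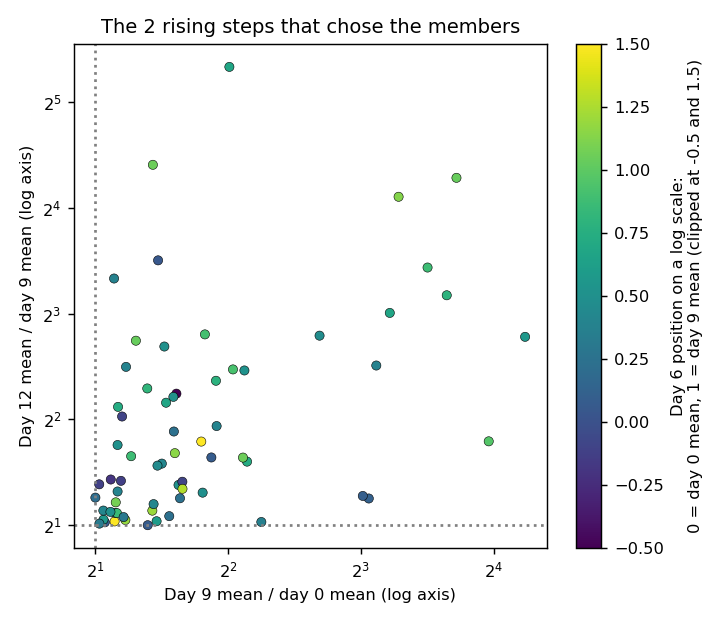
Day 9 mean over day 0 mean (x axis) and day 12 mean over day 9 mean (y axis) of the 66 members, both as folds on log axes; dotted lines mark the limits of 2 that chose the members, and the colour gives the day 6 position between day 0 and day 9. Many members sit near both limits, and 25 lie at a second step of at least 4.

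The members were mostly of moderate or low level. At day 12 their means ran from 2.23 to 1871 CPM with a median of 10.9 CPM. Of the 66, 31 lay under 10 CPM, 29 between 10 and 100 CPM and 6 above. At day 0, 35 had a mean under 1 CPM. A pair of members held most of the reads. Pbr005261.1 and a model of 870 coding bases on the plus strand of scaffold18.0 (724696 to 725935) together gave 3558 to 3776 CPM in the day 12 libraries, against 492 to 657 CPM at day 0. The other 64 members summed to 2164 to 2269 CPM at day 12 and to 242 to 272 CPM at day 0. Per length, in FPKM (the authors' scaling of a count to the length of its model and the total of its library), the same pair led at day 12 with means of 2345 and 2078. The third level was 483 FPKM, in a model of 795 bases on scaffold603.0, and the median over members was 8.15 FPKM.

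**Figure D2:**
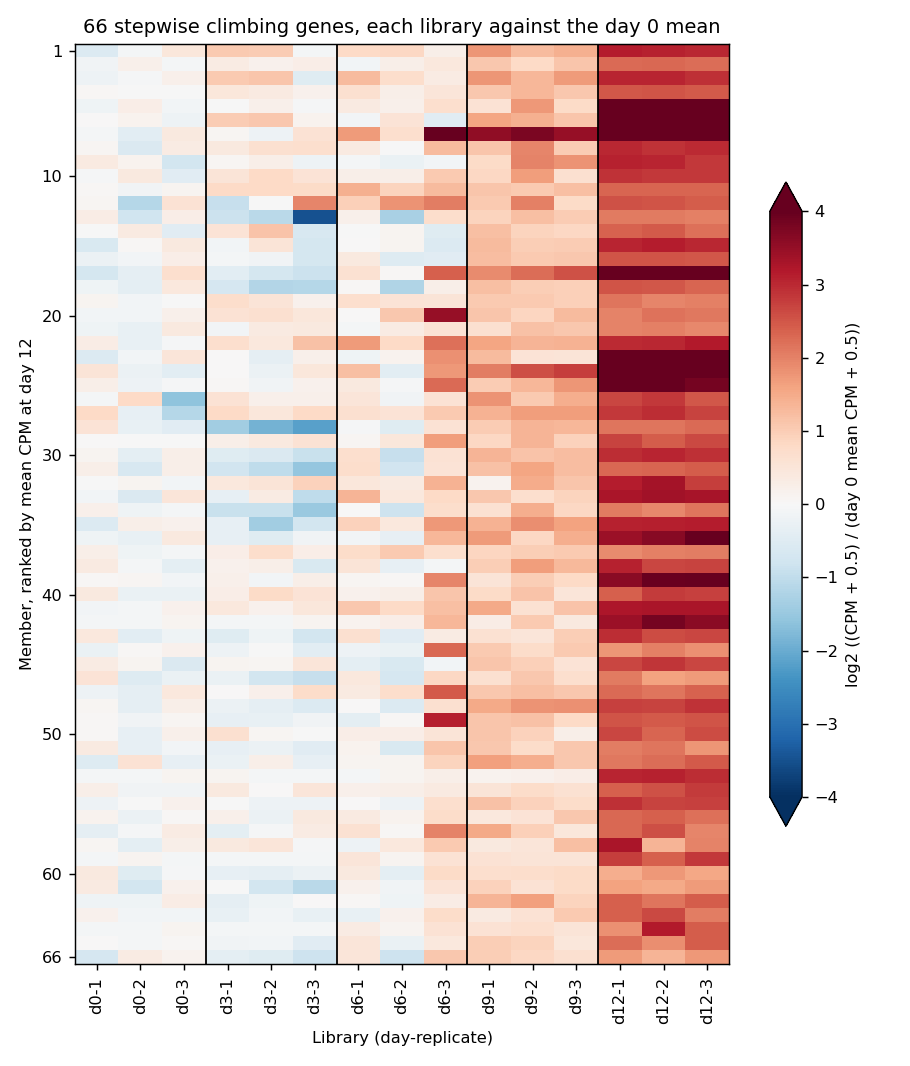
Heat map of the 66 members (rows, ranked by mean CPM at day 12) in the 15 libraries (columns, day-replicate). Colour is log2 of CPM over the day 0 mean, with 0.5 CPM added to both and colours ending at 4 in either direction; day 12 is high in all rows as the choice required, and in day 6 replicate 3 many rows already show day 9 colours or stronger ones.

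Pbr005261.1, the member with the highest day 12 level, is a model of 798 coding bases on the minus strand of scaffold126.0 (760250 to 761427). It had 150.0, 210.0 and 301 CPM at day 0 and 455, 441 and 208 CPM at day 3. At day 6 it had 384, 388 and 262 CPM, at day 9 745, 532 and 597 CPM, and at day 12 1960.0, 1876 and 1779 CPM. Day 3 replicate 3 and day 6 replicate 3 were the low libraries of their days and lay within the range of day 0. By edgeR's quasi-likelihood test over all models, with Benjamini-Hochberg adjustment, it rose at day 12 relative to day 6 by 2.45 ± 0.303 on the log2 scale (SE; adjusted p = 8.7e-05). Day 9 was above day 6 by 0.93 ± 0.290 (SE; adjusted p = 0.0213), a call that was lost with a smooth trend of level on model length removed from each library (0.67, adjusted p = 0.1), with that trend removed beside a replicate block (0.68, adjusted p = 0.123), without day 6 replicate 3 (0.77, adjusted p = 0.074) and without day 9 replicate 1 (0.80, adjusted p = 0.0746). Day 6 passed the test neither against day 3 (-0.07 ± 0.288, SE; adjusted p = 0.936) nor against day 0 (0.69 ± 0.289, SE; adjusted p = 0.151).

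Pbr002309.1 had the largest log2 change between day 12 and day 9 among the 43 members with an average log2 CPM of at least 1. It is a model of 1416 coding bases on the minus strand of scaffold1096.0 (9831 to 16416). Its levels were 0.130, 0.348 and 0.766 CPM at day 0, 0.425, 0.207 and 0.557 CPM at day 3, and 0.304, 0.519 and 2.71 CPM at day 6. They were 1.71, 0.837 and 0.818 CPM at day 9 and 23.6, 23.7 and 24.1 CPM at day 12. Day 6 replicate 3 lay above all day 9 libraries, while the other two day 6 libraries lay within the day 0 range. The gene rose at day 12 relative to day 6 by 4.27 ± 0.605 on the log2 scale (SE; edgeR adjusted p = 0.000253). Day 9 against day 6 gave -0.05 ± 0.642 (SE; adjusted p = 0.958), and without day 6 replicate 3 it gave 1.48 (adjusted p = 0.051).

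The other two named members were those with the lowest day 6 level relative to day 3 among the same 43. Pbr022252.1 is a model of 813 coding bases in 1 block on the plus strand of scaffold335.0 (3547 to 4359). Its levels were 4.56, 5.08 and 3.90 CPM at day 0, 9.72, 9.98 and 5.02 CPM at day 3, 4.17, 6.81 and 3.18 CPM at day 6, 14.4, 13.0 and 10.3 CPM at day 9 and 146, 144 and 137 CPM at day 12. The day 3 and day 6 ranges overlapped, and day 12 stood far above all else. Its log2 fold change at day 6 relative to day 3 was -0.79 ± 0.272 (SE; adjusted p = 0.251, edgeR), which passed the threshold only without day 6 replicate 2 (-1.15, adjusted p = 0.0246). It rose at day 9 relative to day 6 by 1.48 ± 0.270 (SE; adjusted p = 0.000705) and at day 12 relative to day 6 by 4.92 ± 0.286 (SE; adjusted p = 1.48e-07), the smallest adjusted p among the members in that comparison, which 1 other member shared. Pbr008406.1, 462 coding bases on the minus strand of scaffold150.0 (583668 to 584521), had 6.57, 8.70 and 4.81 CPM at day 0, 10.03, 15.4 and 4.11 CPM at day 3, 6.602, 7.26 and 4.68 CPM at day 6, 16.1, 12.9 and 12.1 CPM at day 9 and 36.1, 38.9 and 32.4 CPM at day 12. Replicate 3 was its lowest library on every day. It was higher at day 9 than at day 6 by 1.22 ± 0.351 (SE; adjusted p = 0.0139), a call lost with the length trend removed (0.80, adjusted p = 0.105), and at day 12 by 2.54 ± 0.356 (SE; adjusted p = 0.000232).

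**Figure D3:**
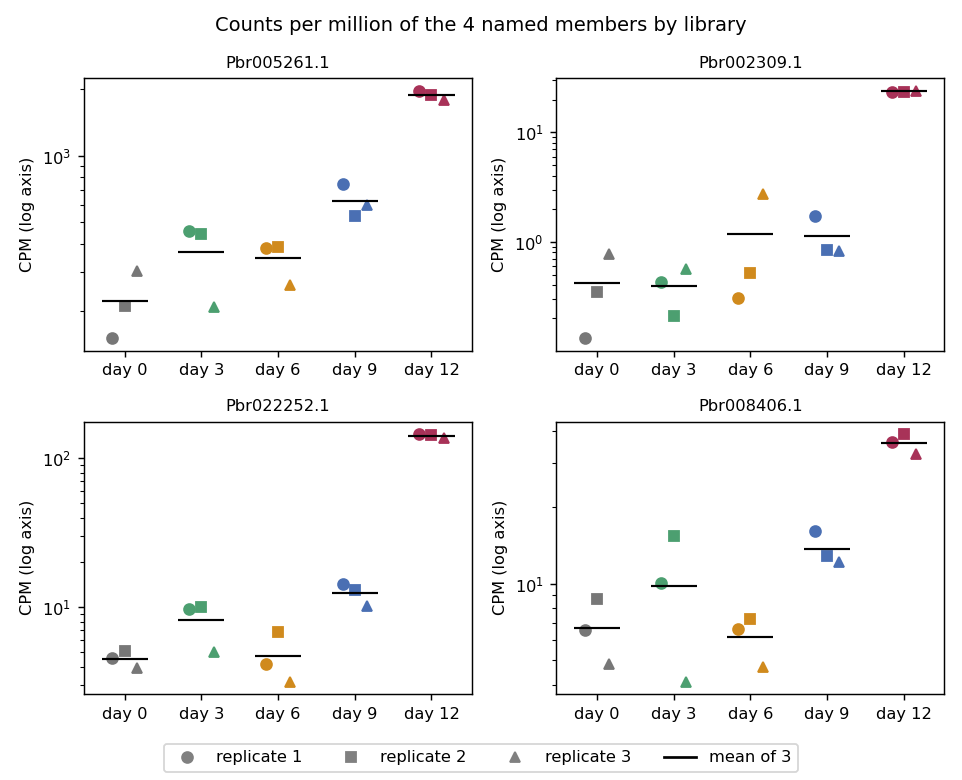
CPM on log axes of the 4 named members in each library by day; circles, squares and triangles are replicates 1, 2 and 3 and the bars are means of 3 libraries. Day 6 replicate 3 is the highest day 6 library in Pbr002309.1 (2.71 CPM) and the lowest in the other 3 members.

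By its means, day 6, the day outside the choice, lay mostly between day 0 and day 9. The day 6 mean was between these means, with day 9 the higher, in 48 of 66 members (18.2% of the 27440 tested Pbr models), above the day 9 mean in 12 (55.7%) and below the day 0 mean in 6 (56.6%). On a log scale on which the day 0 mean is 0 and the day 9 mean is 1, the median member stood at 0.505 on day 6, with quartiles of 0.261 and 0.869. Without day 6 replicate 3 the median was 0.203. All 3 day 6 libraries lay below all day 12 libraries in 61 members, where 19.4% of tested Pbr models had this order. They lay below all day 9 libraries in 27 members, against 18.6% of tested Pbr models. Only in 14 members did they all lie above all day 0 libraries, against 9.09% of tested Pbr models. The day 0, day 9 and day 12 ends of these counts, of means and of libraries, were part of the choice. It put day 9 above day 0 in every member. Tested Pbr models were not held to this, so their shares differ from those of members in part through the choice. All day 6 libraries lay above all day 3 libraries in 11 members (5.55% of tested Pbr models), a count that was 32 without day 6 replicate 2 (13.4%). With a library fewer the condition is easier to meet for every model, so such a count can only stay or rise.

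Tested against day 3, no member passed at an adjusted p under 0.05, and neither did any of the 29134 models tested (0% called higher and 0% lower by edgeR). At an unadjusted p under 0.05, 35 members were higher and 2 lower at day 6, where 8.15% of all tested models were higher and 5.96% lower. DESeq2 called 6 members higher and none lower out of the 61 to which it gave an adjusted p, against 1.28% of its models higher and 0.49% lower. The member median of the log2 fold change was 1.24, with quartiles of 0.16 and 1.92, beside 0.01 over all tested models. The day 3 ceiling belonged to the choice, so the day 3 end of this comparison was held low. The comparison also turned on single libraries. Without day 6 replicate 2, 21 members were called higher and 1 lower, against 3.42% and 3.68% of all models. Without day 6 replicate 3 the median was 0.39, and 12 members in place of 35 were higher at an unadjusted p under 0.05, against 5.47% of all models.

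Against day 0, 9 of 66 members were called higher at day 6 and none lower (edgeR), where 5.3% of all tested models were called higher and 4.26% lower. At an unadjusted p under 0.05 there were 30 higher and none lower (13.6% and 12% of all models). DESeq2 called 15 higher and none lower (8.16% and 5.9%). Day 0 was an end the choice held low. The smallest adjusted p belonged to a model of 1560 bases on the plus strand of scaffold165.2 (244379 to 247434). It had 30.7, 21.1 and 27.3 CPM at day 6, against 11.5, 9.88 and 11.8 CPM at day 0, and rose by 1.30 ± 0.128 on the log2 scale (SE; edgeR adjusted p = 0.000362). Its 19.4, 19.7 and 19.3 CPM at day 3 and 24.2, 23.5 and 26.3 CPM at day 9 put most of its first step before day 6. At 364 CPM on day 12, the model on the plus strand of scaffold8.0 (1511463 to 1521396, 2283 bases) was the most abundant of these 9. It had 100.7, 76.2 and 91.6 CPM at day 6, against 67.4, 63.5 and 63.5 CPM at day 0, and rose by 0.52 ± 0.115 (SE; adjusted p = 0.0144). The count of 9 was 3 when day 0 replicate 2 was left out (1.94% of all models). Leaving out day 6 replicate 1 gave 16 (8.33%) and leaving out day 6 replicate 2 gave 20 (6.19%). A fit on these 2 days alone called none of the members and 0.00343% of all models.

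From day 6 on, more members passed the test. At day 9, 23 of 66 were called higher than at day 6 and none lower (17.8% of all tested models were higher and 21.8% lower), with a median log2 fold change of 0.79, beside -0.03 over all models. At an unadjusted p under 0.05 none was lower either (25.9% of all models), and DESeq2 called 26 higher and none lower (19.1% and 22.6%). At day 12, 58 of 66 were called higher than at day 6 and none lower (10.6% of all tested models were higher and 10.7% lower), with a median of 2.52. No member was lower at an unadjusted p under 0.05 (16.7% of all models), and DESeq2 also called 58 higher and none lower (11.9% and 12.7%). Each of the 58 differed at least 2-fold. They include all 11 members that passed the filter on low counts through their day 12 libraries alone, and thus had to differ. Of the other 55 members, 47 were called higher. The later day was in both cases an end the choice held high. The largest adjusted p at day 12 was 0.89, for the model on the minus strand of scaffold334.0 (399333 to 401727, 1476 bases), with 25.7, 29.2 and 27.6 CPM at day 12, against 6.07, 13.3 and 72.0 CPM at day 6. Its day 6 replicate 3 was the highest of all 15 libraries. Within the contrasts that chose the members, edgeR called 52 higher at day 9 than at day 0 (23% of all models), 51 higher at day 12 than at day 9 (26.4%) and 66 at day 12 relative to day 0 (11.6%), from which nothing is read.

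**Figure D4:**
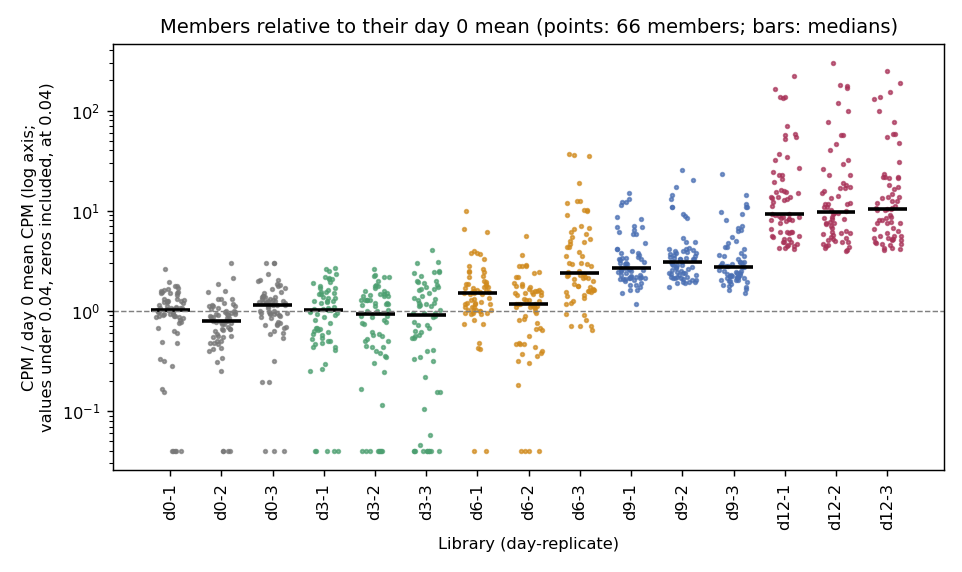
CPM of each member over its own day 0 mean (y axis, log) in the 15 libraries (x axis, day-replicate); points are the 66 members, with values under 0.04 drawn at 0.04, and bars are medians. Day 6 replicate 3 has a median of 2.39, near the 2.67 to 3.09 of day 9, and day 6 replicates 1 and 2 have medians of 1.49 and 1.17.

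The 3 day 6 libraries differed over these genes, with replicate 3 the highest in most of them. The median member stood at 1.49, 1.17 and 2.39 times its day 0 mean in replicates 1, 2 and 3. On day 9 the medians were 2.67, 3.09 and 2.75, and on day 3 1.01, 0.941 and 0.914. Tested Pbr models had medians of 0.940, 0.958 and 0.946 in the same day 6 libraries. Replicate 3 was above all day 0 libraries in 55 members (29.6% of tested Pbr models), replicate 1 in 32 (25.2%) and replicate 2 in 20 (27.1%). Placed alone on the log scale from day 0 to day 9, replicates 1, 2 and 3 had median positions of 0.351, 0.172 and 0.854. The day 0 and day 9 ends of these values were part of the choice, to which the tested Pbr models were not held.

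Replicate 3 was the highest day 6 library in 49 of 66 members, where 35.5% of tested Pbr models had it highest. Replicate 2 was the lowest in 45 (27%). In 21 members replicate 3 was at least 2 times both others (5.17% of tested Pbr models), whereas replicates 1 and 2 held such a lead in none (2.22% and 4.23%). Among the 33 members with a day 6 mean of at least 2 CPM, replicate 3 was highest in 21 (35.8% of tested Pbr models at that level) and at least 2 times both others in 7 (4.31%). The median ratio of replicate 3 to the mean of the other two was 2.08 over members, with quartiles of 1.31 and 3.71, and 0.989 over tested Pbr models, with quartiles of 0.803 and 1.24. On day 12 the highest library was spread more evenly, with replicates 1, 2 and 3 highest in 18, 27 and 21 members (33.8%, 28.4% and 37.7%). Day 6 replicate 3 was also the deepest day 6 library, with 17319407 counts against 13177097 and 15427560 in replicates 1 and 2. Whether the depth has a part in the lead was not tested beyond the scaling to CPM.

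**Figure D5:**
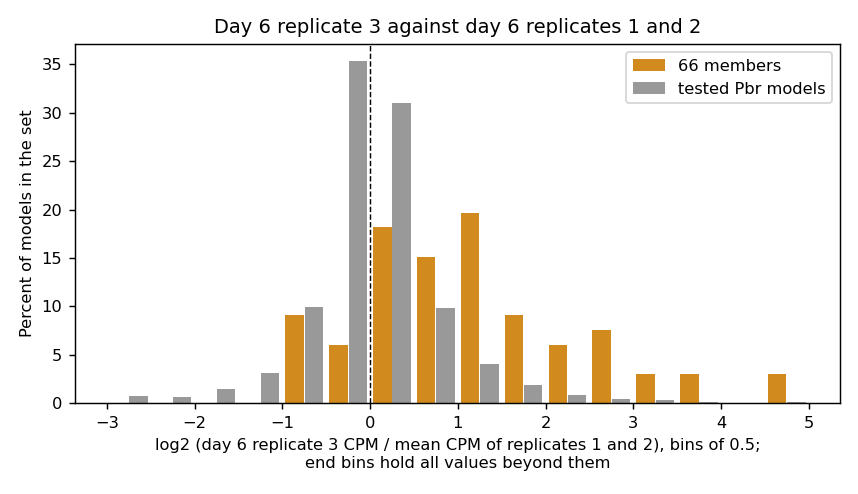
Distribution of log2 of day 6 replicate 3 over the mean of day 6 replicates 1 and 2 (x axis, bins of 0.5) as the percent of models in each set (y axis), for the 66 members (left bars) and the tested Pbr models (right bars). The members are shifted to the right, with a median ratio of 2.08 against 0.989.

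The highest ratio, 25.4, belonged to a model of 864 bases on the minus strand of scaffold453.0 (17277 to 18557), with 0.152, 0.389 and 6.87 CPM in replicates 1, 2 and 3. A member with more reads, chosen after its values were seen, was the model of 1890 bases on the minus strand of scaffold265.0 (366423 to 368580). It had 6.68, 2.98 and 62.0 CPM at day 6, against 1.82, 1.38 and 2.79 CPM at day 3. At day 9 it had 25.1, 29.3 and 24.2 CPM and at day 12 86.6, 94.7 and 91.1 CPM, so that day 6 replicate 3 lay between day 9 and day 12 and the other two between day 3 and day 9. Day 6 replicate 3 exceeded all day 9 libraries in 18 members (44% of tested Pbr models), and 8 of the 21 members with its 2-fold lead had a day 6 mean above their day 9 mean. Those 21 had a median second step of 4.34-fold, beside 3.12-fold over all members, and a median day 12 level of 5.94 CPM beside 10.9 CPM.

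In 7 members the order was turned round and replicate 3 was the lowest day 6 library, which holds for 33% of tested Pbr models. They include 3 of the 4 named members and were set apart after their values were seen. Day 3 replicate 3 was the lowest library of its day in 6 of these 7, against 32 of all 66 members and 37.8% of tested Pbr models. The model of 795 bases on the minus strand of scaffold603.0 (193944 to 195168) belongs to them. It had 41.1, 46.3 and 55.4 CPM at day 0, 99.8, 103 and 34.2 CPM at day 3, and 115, 77.8 and 60.2 CPM at day 6, followed by 163, 122 and 157 CPM at day 9 and 393, 396 and 362 CPM at day 12. Its low libraries were those of Pbr005261.1, a model of nearly the same length at 798 bases. Whether both are copies that share reads was not tested, as no sequence was used here. Another of the 7, with 369 bases on the minus strand of scaffold381.0 (236191 to 236992), had 3.28, 5.37 and 2.02 CPM at day 3 and 3.64, 3.89 and 2.31 CPM at day 6. The median length of the 7 was 798 bases, beside 1182 bases in the 49 members with replicate 3 highest. With the length trend removed, 4 of the 7 and 37 of the 49 still met the conditions of the choice.

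In 6 of 66 members day 9 replicate 2 was at least 1.5 times both other day 9 libraries, which 5.62% of tested Pbr models showed, so the count lay near the background. All 6 also had day 6 replicate 3 as their highest day 6 library, as had 49 of the 66 members. The model of 1119 bases on the plus strand of scaffold603.0 (149894 to 151296) had 19.1, 43.4 and 22.2 CPM at day 9, followed by 288, 292 and 273 CPM at day 12. The model of 900 bases on scaffold701.0 (155 to 1138, plus strand) had 20.6, 38.2 and 19.3 CPM at day 9, and that of 855 bases on scaffold532.0 (201062 to 201916, plus strand) had 14.1, 25.9 and 12.5 CPM. The lead of day 9 replicate 2 is how these 6 were set apart, after their values were seen.

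The ceiling at day 3 left the members free to lie below day 0 there, and 32 of 66 did by their means, 18 of them at no more than 1/2 of the day 0 mean. In 8 members all day 3 libraries lay below all day 0 libraries (18.8% of tested Pbr models), and in 10 all lay above (14.2%). The 8 of 66 are a smaller share than that of tested Pbr models, so this order of libraries does not set the members apart. Whether the spread within a day has a part in the smaller share was not tested. Among members with at least 2 CPM the median coefficient of variation was 28.3% at day 0 and 19.2% at day 3. Over tested Pbr models at that level it was 13.1% and 10.5%. For the low day 3 means, no share of tested Pbr models is given here, so these are not compared. The 8, set apart after their values were seen, were between 792 and 1824 bases long. Their summed level was 27.7, 15.3 and 27.1 CPM at day 0, 11.7, 9.29 and 3.76 CPM at day 3, and 27.6, 9.92 and 36.8 CPM at day 6. It was 50.5, 59.7 and 52.2 CPM at day 9 and 129, 127 and 124 CPM at day 12. At day 6 replicate 2 alone stayed within the day 3 range. The model with the highest level among them, 1761 bases on the minus strand of scaffold19.0 (1278680 to 1281519), had 13.1, 5.85 and 12.7 CPM at day 0, 5.59, 4.75 and 0.488 CPM at day 3, 12.3, 4.02 and 17.4 CPM at day 6, 19.99, 25.2 and 21.7 CPM at day 9, and 46.5, 46.1 and 43.9 CPM at day 12.

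The spread between replicates was large on day 6 and small on day 12. The median coefficient of variation over members was 58.2% at day 6 and 7.49% at day 12. Among the 33 members with at least 2 CPM at day 6 it was 39.7%, beside 17.8% over tested Pbr models at that level. At day 12 it was 7.49% in both sets. On days 0, 9 and 12 the condition on overlap bears on this spread, on days 3 and 6 it does not.

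The structure of the models played no part in the choice. The members had a median coding length of 1203 bases, with quartiles of 824 and 1588, beside 1161 bases with quartiles of 702 and 1767 over the 27440 tested Pbr models. Their median span on the scaffold was 1652 bases, beside 2418. Models in 1 block, whose length equals their span, made up 19 of 66 members, against 19.5% of tested Pbr models and 28.8% of all Pbr models. The plus strand held 34 of the 66, against 13720 of the 27440 tested Pbr models. The members lay on 61 scaffolds, with 5 scaffolds holding a pair and none holding more. On scaffold603.0 the pair lay 42647 bases apart with 3 listed models between them. These are the 1119-base and 795-base models described above. Their highest and lowest libraries both differed on days 6 and 9, and were the same on days 3 and 12. On scaffold265.0 the pair lay 32794 bases apart with 4 models between them. The second model there, 1638 bases on the plus strand (331991 to 333628), had its highest day 6 level in replicate 3, as its neighbour did. The other 3 pairs had 7, 9 and 71 models between them.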

How the data were processed

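The authors deposited 1 table with a read count and an FPKM value per gene model and library. The count columns are whole numbers without normalization, per the file headers and values. The FPKM columns are the authors' scaling to model length and library total, and all 949 member values above 0 were returned from the counts within a relative tolerance of 1e-04. HISAT is named per the submitters' processing notes, and the series' design text names *Pyrus bretschneideri* as the source of the genome. The version of that genome, the counting program and the use of strand are likewise not given in the sources used here, so reads of copies, overlapping models and antisense models may be mixed. Pbr lengths are coding lengths.

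Groups came from the sample titles. CPM used raw column totals. Counts were tested in edgeR 4.0.16 (R 4.3.3) with filterByExpr, TMM, 1 quasi-likelihood fit on 29134 models and all 15 libraries, and Benjamini-Hochberg adjustment over all models at 0.05. Each SE printed beside a log2 change was that change, without its sign, over the square root of its F. All 66 members passed the filter, 11 of them through day 12 alone. Members and lists were chosen with earlier results of these data known. At most 4 IDs were named: the highest day 12 mean, the largest log2 change of day 12 against day 9 and the 2 lowest of day 6 against day 3, the last 3 at an average log2 CPM of at least 1. Other models were chosen after their values were seen. The test was checked on simulated data with known changes at day 6 against day 3. It called 39 of 100 2-fold and 92 of 100 4-fold increases, with 2 false calls among 133. The changed models were drawn above a minimum mean count, which not all members reach. Each model was also simulated with 1 spread for all days. Over tested Pbr models with at least 2 CPM, the median coefficient of variation was 17.8% at day 6 and 10.5% at day 3. The recovered shares may therefore not hold for day 6 as measured. Alternatives were RLE scaling, no filter, DESeq2 1.42.0, fits on 2 days, removal of a lowess trend on length, a replicate block, and leaving out each library.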

Additional observations from a re-analysis of the deposited data

How the results depend on the processing

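Of the 4 counts of members called, the 23 members higher at day 9 than at day 6 and the 58 higher at day 12 than at day 6 stayed within 1.5 times under all alternatives run, at 17 to 34 and 54 to 64 with a library left out. The count at day 6 against day 3 was 0, but 6 with DESeq2 and 0 to 21 with a library left out. At day 6 against day 0 the 9 members became 15 with DESeq2, 0 with only these 2 days in the fit and 3 to 20 with a library left out. The cause was not tested. The number of members was 182 with 1.5-fold and 23 with 3-fold steps. It was 65 with TMM-scaled CPM, of which 57 were among the 66, and 70 with the length trend removed, of which 48 were. With a library left out it was 59 to 69. The 11 members with all day 6 libraries above day 3 were 12 to 32 with a day 6 library left out, an alternative chosen after seeing the data, which loosens the condition and so cannot lower the count.

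The replicate block left 0, 8, 23 and 59 members called higher at day 6 against day 3, day 6 against day 0, day 9 against day 6 and day 12 against day 6. Whether the numbers pair the libraries was not settled. Of 30 same-numbered pairs, 2 correlated above 0.1 in their deviations from the day means, with a range of -0.0816 to 0.166. Of 15 libraries, 7 correlated best with their own number. Low correlations cannot exclude shared cultures, and the labels do not name any. Small uncalled log2 changes turned sign. Pbr002309.1 at day 9 against day 6 gave 0.047 with the length trend removed, 0.16 with the replicate block and 0.26 with both, and -0.05 as reported. With a library left out it ran between -0.47 and 1.48, Pbr005261.1 at day 6 against day 3 between -0.35 and 0.11, Pbr008406.1 at day 6 against day 0 between -0.22 and 0.15, and Pbr022252.1 at day 6 against day 0 between -0.25 and 0.34. Depth limits the folds of the 6 members with at most 3 counts over the day 0 libraries. The largest fold among the other 60, 129, also rests on few, 8 in all.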
